A study of Homo sapiens with 9 samples.

Results

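The genes described here lie on human chromosome 13 between 30 and 40 Mb (GRCh38), a stretch of the long arm that holds the basement membrane gene FREM2, the matrix gene POSTN and the DNA repair gene BRCA2. The interval was chosen by its differences between the cisplatin-resistant lines and OV90, so those differences are given as a description, with no p-value for its genes, and nothing is read from how many of them were called. It has 36 listed genes, all rows of a deposited table of 43424 gene symbols. Of the 36 genes, 26 were kept because their reads made up at least 1 CPM of a library (reads scaled by the column total) in 3 or more libraries out of 9, as did 14233 rows of the whole table. A further 85 rows that start in the interval are not among the listed genes; 9 of them are protein coding and 4 of the 85 were kept (CCDC169, LINC00437, LOC124903145 and MICOS10P1).

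The study compared OV90, an ovarian cancer cell line that the labels give as sensitive, with OV90CisR1 and OV90CisR2, which they give as resistant. OV90 grew in serum-containing medium without cisplatin and both resistant lines grew in the same medium with cisplatin, so resistance and exposure to the drug cannot be told apart. Each line had 3 libraries of the 3′ ends of messenger RNA, with 5825708 to 7607679 reads a library in the genes of the table. The labels give no cisplatin dose, do not say whether a resistant line is 1 clone, and do not say whether replicates came from separate cultures. P-values therefore reflect only how far these libraries spread, which may be technical. OV90 replicate 3 and OV90CisR1 replicate 3 stood apart: their correlation with the other libraries of their line (Pearson's r of log2 values) was 0.955 to 0.957 and 0.941 to 0.942, beside 0.979 and 0.98 between those others.

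FREM2 is a large membrane protein that, with FRAS1 and FREM1, forms the Fraser complex, which anchors epithelia to the basement membrane. POSTN encodes periostin, a secreted matrix protein that binds integrins and is typical of fibroblasts and tumour stroma. BRCA2 acts in the repair of broken or stalled DNA by homologous recombination, and loss or recovery of its function is known to change how ovarian cancers respond to platinum drugs, which crosslink DNA.

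The promoters of FREM2 and POSTN, whose differences from OV90 were the largest of the interval in both lines, and that of UFM1, which lies between them and differed little, are shown to set side by side the sequence at their starts. Each runs 5′ to 3′ on the strand of its gene from 250 bases before to 50 bases after the start (RefSeq, GRCh38.p14). Capitals mark matches to TATAAA or TGANTCA on either strand.
FREM2, chr13:38686827-38687126, plus strand: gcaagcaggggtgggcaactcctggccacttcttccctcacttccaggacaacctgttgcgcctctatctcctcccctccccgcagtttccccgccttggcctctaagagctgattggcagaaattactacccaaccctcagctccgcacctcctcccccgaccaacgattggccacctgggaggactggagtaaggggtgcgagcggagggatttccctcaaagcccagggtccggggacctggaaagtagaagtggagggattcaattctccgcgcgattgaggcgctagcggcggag
POSTN, chr13:37598719-37599018, minus strand: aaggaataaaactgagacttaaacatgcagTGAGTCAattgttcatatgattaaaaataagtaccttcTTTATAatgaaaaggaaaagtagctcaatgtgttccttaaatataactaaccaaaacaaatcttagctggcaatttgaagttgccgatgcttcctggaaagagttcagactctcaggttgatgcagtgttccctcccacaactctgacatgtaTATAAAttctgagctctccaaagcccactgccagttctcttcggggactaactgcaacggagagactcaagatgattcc
UFM1, chr13:38349601-38349900, plus strand: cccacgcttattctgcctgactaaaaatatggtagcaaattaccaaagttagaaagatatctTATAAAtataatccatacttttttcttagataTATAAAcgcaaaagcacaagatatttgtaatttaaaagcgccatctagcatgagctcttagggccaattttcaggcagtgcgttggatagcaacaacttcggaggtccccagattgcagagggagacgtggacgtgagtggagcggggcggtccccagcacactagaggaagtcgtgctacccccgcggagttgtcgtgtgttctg
The FREM2 window was 61% G or C with 15 CpG dinucleotides and no match. The POSTN window was 39% G or C with 3 CpG dinucleotides, 2 matches to TATAAA and 1 to TGANTCA, and the UFM1 window was 45% G or C with 13 CpG dinucleotides and 2 matches to TATAAA.

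Promoters were found for 32 of the 36 listed genes and 22 of the 26 kept ones. Their G and C share had a median of 61.2% over the 22, beside 58.3% over 27305 promoters, and their CpG count a median of 17, beside 14. The 27305, called all promoters below, leave out those of chr8 and repeats of a symbol. TATAAA, the core of the TATA box, was in 4 of the 22 (EXOSC8, POSTN, UFM1 and COG6) and in 12.0% of all promoters. TGANTCA, the AP-1 motif, was also in 4 (DCLK1, SPART, EXOSC8 and POSTN), beside 7.76% of all promoters. CAGCTG, an E-box, was in 7 of the 22 and in 17.7% of all, and GGAATG, the TEAD motif, was in DCLK1 alone and in 14.0% of all. The motifs were searched on both strands and a match describes the letters only.

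Values below are the deposited normalised reads, a scale that does not account for gene length, so levels are compared between lines and not between genes. Log2 differences are differences of group means of log2(normalised reads + 1) with the standard error (SE) of a limma fit over all 9 libraries, a scale that understates differences of genes with few reads. In bulk RNA, fewer cells that express a gene and less RNA per cell cannot be told apart.

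Among the matrix genes, FREM2 (chr13:38687077-38887131) was low in OV90 and high in both resistant lines. The OV90 libraries had 33.9, 37.0 and 19.8 normalised reads, the OV90CisR1 libraries 769.6, 757 and 808, and the OV90CisR2 libraries 624, 632 and 579. Every resistant library was above every OV90 library, and the lines did not overlap with each other, OV90CisR1 being the higher. The log2 difference from OV90 was 4.69 ± 0.21 (SE, n = 3 libraries a line) in OV90CisR1 and 4.34 ± 0.21 in OV90CisR2. Summed reads gave ratios of 26.0 (95% exact counting interval 21.1 to 32.4) and 20.4 (16.6 to 25.4). OV90CisR2 against OV90CisR1 gave -0.35 ± 0.21, which did not pass (adjusted p = 0.297 by limma with Benjamini-Hochberg adjustment over all kept genes).

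The long noncoding gene LINC00437 (chr13:38532000-38686675) ends just before FREM2 and is not one of the listed genes. It had 0, 0.97 and 0 normalised reads in OV90, 14.5, 12.7 and 2.25 in OV90CisR1, and 5.12, 9.62 and 4.40 in OV90CisR2. With 1 read in all of OV90, 28 in OV90CisR1 and 21 in OV90CisR2, the ratios of 31.1 (5.14 to 1272) and 20.1 (3.23 to 829.7) had wide counting intervals. FREM2 also overlaps FREM2-AS1, and strand handling is not given in the sources used here.

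POSTN (chr13:37562585-37598768) was higher in both resistant lines, and higher in OV90CisR2 than in OV90CisR1. OV90 had 3.08, 2.92 and 2.70 normalised reads, which is 3 reads in each library. OV90CisR1 had 42.4, 56.2 and 46.1, and OV90CisR2 had 211, 149.6 and 201. None of the 3 lines overlapped. Against OV90 the log2 difference was 3.65 ± 0.26 in OV90CisR1 and 5.58 ± 0.26 in OV90CisR2, and summed reads gave ratios of 16.7 (8.52 to 37.2) and 64.3 (33.7 to 141). OV90CisR2 was 1.93 ± 0.26 above OV90CisR1 on the log2 scale (limma adjusted p = 0.00150), a ratio of 3.86 (3.20 to 4.69) in summed reads, higher in 3 of 3 libraries. With each of the 9 libraries left out in turn, the adjusted p lay between 0.00094 and 0.0189.

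Fibroblast markers were present in every line, with sums of 4070 to 5427 normalised reads in OV90, 7484 to 12329 in OV90CisR1 and 4611 to 5968 in OV90CisR2. Of 8 markers, 7 were kept and none was at 0 in a whole line. By limma with adjusted p under 0.05, 8.54% of all kept genes were called higher than OV90 in OV90CisR1 and 2.35% in OV90CisR2. Of the fibroblast markers, 3 were called higher in OV90CisR1 (COL3A1, DCN, FAP) and 3 in OV90CisR2 (DCN, LUM, FAP). In the fits that left out 1 library these counts were 2 to 4 in OV90CisR1, where DCN did not pass without OV90 replicate 1, OV90CisR1 replicate 1 or OV90CisR1 replicate 2, and 3 in OV90CisR2. In OV90CisR2 against OV90CisR1, the contrast in which POSTN passed, DCN (1.43 ± 0.27) and LUM (2.75 ± 0.52) were higher and COL3A1 (-1.31 ± 0.25) was lower, with limma adjusted p of 0.0083, 0.0090 and 0.0094. Of all kept genes, 5.16% were called higher and 4.9% lower in that contrast. DCN did not pass there without OV90CisR2 replicate 1 (adjusted p = 0.0518). Of 11 ovarian carcinoma and epithelial markers, 2 were kept (EPCAM and KRT8), and PAX8, MUC16, WFDC2, KRT7 and KRT19 were at 0 reads in all OV90 libraries. WFDC2, KRT19, CDH1 and MSLN were at 0 reads in all OV90CisR1 libraries, and PAX8, MUC16, WFDC2, KRT7, KRT18 and KRT19 in all OV90CisR2 libraries. KRT8 was 3.32 ± 0.76 higher in OV90CisR2 than in OV90 (limma adjusted p = 0.0398), a call lost without any 1 of the libraries other than OV90 replicate 3 and OV90CisR1 replicate 3. The sums of this list were 48.3 to 73.8 in OV90, 64.0 to 97.6 in OV90CisR1 and 101 to 125 in OV90CisR2. Endothelial markers summed to 5.84 or less in every library, with none of 5 kept, and of 5 leukocyte markers only CD68 was kept. The part of these markers in the POSTN difference was not tested.

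**Figure D1:**
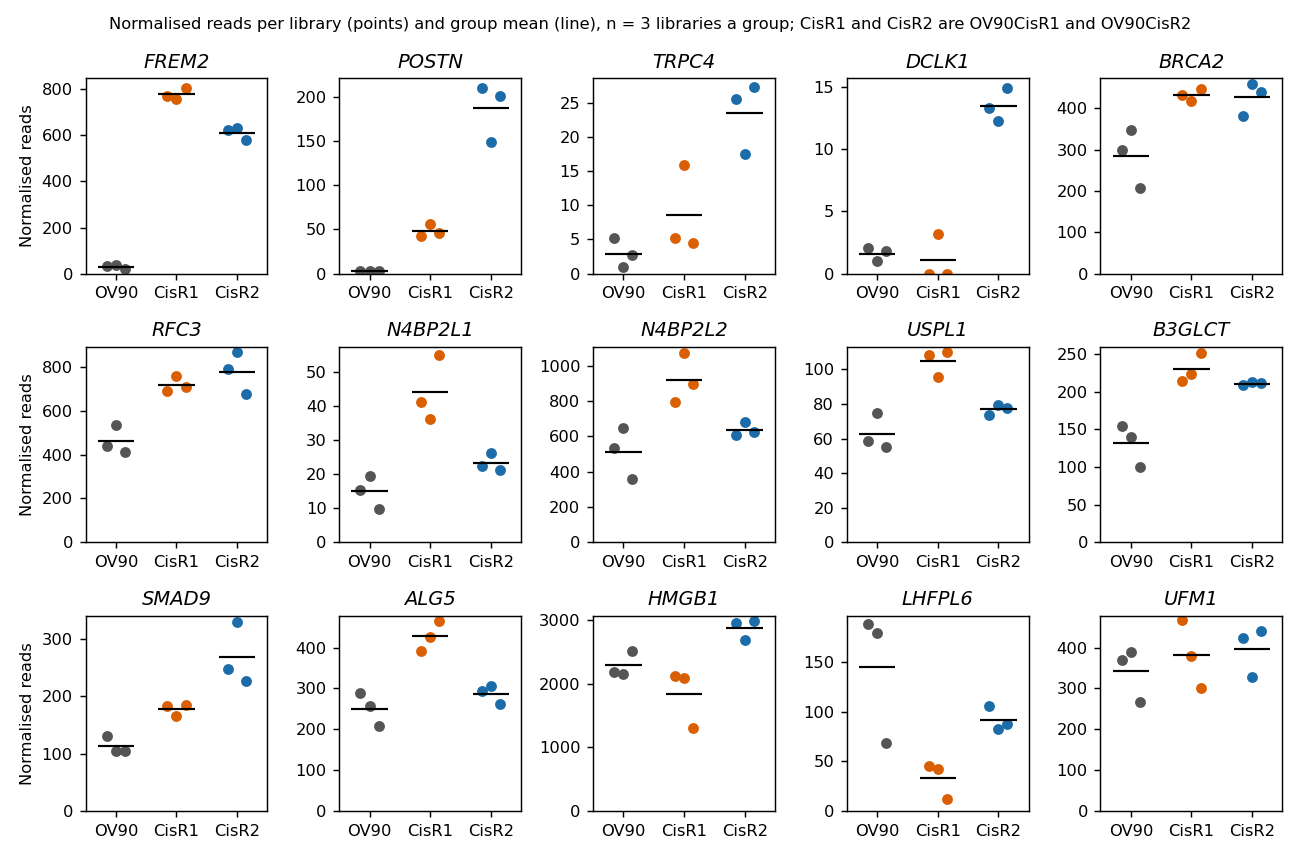
Normalised reads (vertical axes, linear, from 0) in each of the 3 libraries of OV90, OV90CisR1 and OV90CisR2 for 15 genes of the interval; points are libraries and lines are group means. FREM2 and POSTN stand above OV90 in all 6 resistant libraries, while UFM1 between them overlaps in all 3 lines.

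The other kept listed genes on either side of FREM2 and POSTN, TRPC4 apart, overlapped between the lines. UFM1 (chr13:38349851-38363619), a ubiquitin-like modifier, lies between them. It had 370.2, 388 and 267 normalised reads in OV90, 468, 379.7 and 301 in OV90CisR1, and 424, 327 and 442 in OV90CisR2. The 3 lines overlapped, with log2 differences from OV90 of 0.16 ± 0.21 and 0.22 ± 0.21. PROSER1 (chr13:39009865-39038089), on the other side of FREM2, had 98.7, 86.6 and 67.5 in OV90, 72.3, 98.6 and 84.3 in OV90CisR1, and 94.2, 81.4 and 112 in OV90CisR2. Those values overlapped too, with differences of 0.02 ± 0.22 and 0.19 ± 0.22. SUPT20H (chr13:37009312-37059688), a subunit of the SAGA coactivator that precedes POSTN among the kept genes, had 287, 252 and 293 in OV90. Its values were 260.3, 284 and 144 in OV90CisR1 and 387, 199 and 371 in OV90CisR2, so the lines overlapped.

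TRPC4 (chr13:37632063-37869772), a cation channel of the plasma membrane and the gene after POSTN, had few reads. OV90 had 5.14, 0.973 and 2.70 normalised reads, OV90CisR1 5.17, 15.9 and 4.49, and OV90CisR2 25.6, 17.5 and 27.3. OV90CisR2 stood above both other lines in every library, and OV90CisR1 overlapped with OV90. The log2 differences from OV90 were 1.23 ± 0.56 and 2.76 ± 0.56. TRPC4 reached 1 CPM in 4 libraries, all those of OV90CisR2 and OV90CisR1 replicate 2, so it was kept through OV90CisR2. OV90CisR2 against OV90CisR1 gave 1.53 ± 0.56, which was not called and for that reason is no test. Summed reads of OV90CisR2 were 8.07 times those of OV90 (4.03 to 18.3), from 76 and 9 reads.

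DCLK1 (chr13:35768652-36131939), a microtubule-associated kinase, had 2.06, 0.973 and 1.80 normalised reads in OV90, 0, 3.18 and 0 in OV90CisR1, and 13.3, 12.2 and 15.0 in OV90CisR2. Only OV90CisR2 was above 3 normalised reads in all of its libraries. DCLK1 was kept through those 3 libraries alone, so a difference was built into its selection. OV90CisR2 was 3.17 ± 0.65 above OV90CisR1 on the log2 scale, given with no p-value for that reason. Summed reads of 44 and 3 gave a ratio of 12.6 with a counting interval of 4.04 to 63.5.

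NBEA (chr13:34942270-35672736), a scaffold of membrane traffic that lies before DCLK1, had 151, 171 and 50.4 normalised reads in OV90, 90.9, 101 and 89.9 in OV90CisR1, and 208, 159 and 156 in OV90CisR2. OV90 replicate 3 was the lowest library of all, and OV90CisR2 stood wholly above OV90CisR1. That contrast gave 0.87 ± 0.37 (limma adjusted p = 0.152), and 0.00755 without OV90 replicate 3. MAB21L1, a developmental gene within NBEA on the other strand, did not reach the filter. It had 0 reads in OV90, 9 in OV90CisR1 and 17 in OV90CisR2. With OV90 set to a floor of 3 reads over the group, these gave ratios of 3.33 and 5.41, without a counting interval. Strand handling is not given here either, so reads of NBEA may be counted for it.

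The genes of DNA repair and replication lie together between 32 and 34 Mb and differed by smaller amounts in the same direction in both lines. BRCA2 (chr13:32315077-32400268) had 299, 347 and 206 normalised reads in OV90, 433, 418 and 446 in OV90CisR1, and 382, 459 and 439.9 in OV90CisR2. Every resistant library was above every OV90 library, and the resistant lines overlapped. The log2 differences were 0.64 ± 0.18 and 0.61 ± 0.18, and OV90CisR2 against OV90CisR1 gave -0.02 ± 0.18 (limma adjusted p = 0.952).

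RFC3 (chr13:33818149-33977377), a subunit of the clamp loader that places PCNA on DNA, had 440.1, 534 and 410.1 in OV90, 689, 758 and 710.1 in OV90CisR1, and 791, 869 and 677 in OV90CisR2. Again the resistant libraries all lay above OV90, with differences of 0.65 ± 0.14 and 0.76 ± 0.14. PDS5B (chr13:32586452-32778019), a cohesin regulator that also binds BRCA2, had 414, 484 and 330.1 in OV90, 631, 561 and 497 in OV90CisR1, and 536, 615 and 536 in OV90CisR2. It had no overlap with OV90 in either line, with differences of 0.47 ± 0.16 in both.

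Next to BRCA2, N4BP2L1 (chr13:32400723-32429615) had 15.4, 19.5 and 9.89 normalised reads in OV90, 41.3, 36.1 and 55.1 in OV90CisR1, and 22.5, 26.2 and 21.1 in OV90CisR2. Its 3 lines did not overlap, with OV90CisR1 highest and OV90 lowest (1.53 ± 0.32 and 0.65 ± 0.32 against OV90). N4BP2L2 (chr13:32432485-32538868) had 536, 645 and 355 in OV90, 791, 1069 and 896 in OV90CisR1, and 609, 679 and 622 in OV90CisR2. OV90CisR1 was above both other lines, and OV90CisR2 overlapped with OV90 (0.87 ± 0.20 and 0.35 ± 0.20). N4BP2L2 holds the pseudogene MICOS10P1, which is not listed; its reads may be split with its parent gene. MICOS10P1 had 13.4, 12.7 and 10.8 in OV90, 50.6, 76.4 and 48.3 in OV90CisR1 and 30.7, 36.7 and 59.8 in OV90CisR2, with no overlap between OV90 and the resistant lines.

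Over the 5 genes from BRCA2 to RFC3, the median log2 difference was 0.65 in OV90CisR1 and 0.61 in OV90CisR2, with 5 of 5 above 0 in each. OV90 replicate 3 was the lowest OV90 library for each of them, and without it every difference was smaller. BRCA2, N4BP2L1, N4BP2L2, PDS5B and RFC3 were then at 0.42, 1.28, 0.63, 0.32 and 0.57 in OV90CisR1. In OV90CisR2 they were at 0.40, 0.40, 0.11, 0.33 and 0.67.

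Partners of these genes elsewhere in the genome were tested with limma over all kept genes. In OV90CisR1 8.54% of all kept genes were called higher than in OV90 and 7.29% lower, and in OV90CisR2 2.35% and 0.941%. Of 11 genes that act with BRCA2 in homologous recombination, all kept, none was called higher in OV90CisR1 and 2 were lower, RAD51C by -0.75 ± 0.22 and SEM1 by -0.97 ± 0.28 (adjusted p = 0.0425 and 0.0388). On the higher side of OV90CisR1 1 had an unadjusted p under 0.05, edgeR called none and DESeq2 called 1, XRCC3. Over the fits that left out 1 library 0 to 2 were lower, and both calls were lost, among other fits, without any 1 of the OV90 replicates. None of the 11 passed in OV90CisR2, where 1 had an unadjusted p under 0.05 and neither edgeR nor DESeq2 called any. Of 12 cohesin genes none passed against OV90 in either line, with 4 in OV90CisR1 and 3 in OV90CisR2 at an unadjusted p under 0.05, and DESeq2 called 1 in OV90CisR2. Of 6 partners of RFC3 (RFC1, RFC2, RFC4, RFC5, PCNA and CHTF18) none passed either, and none by edgeR or DESeq2. At an unadjusted p under 0.05, 3 were lower and 1 was higher in OV90CisR1, and 1 was higher in OV90CisR2.

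SMAD9 (chr13:36844831-36920854), a transcription factor that BMP receptors activate, had 132, 104 and 105 normalised reads in OV90, 184, 165 and 185 in OV90CisR1, and 249, 329.8 and 227 in OV90CisR2. The 3 lines did not overlap and OV90CisR2 was the highest. Log2 differences from OV90 were 0.65 ± 0.18 and 1.22 ± 0.18, and between the resistant lines 0.57 ± 0.18 (limma adjusted p = 0.0686). Of 12 other genes of the BMP branch 11 were kept; the receptor BMPR1A rose in OV90CisR1 (1.13 ± 0.13, limma adjusted p = 0.00065) and none passed in OV90CisR2, where 2 had an unadjusted p under 0.05 and DESeq2 called 1. Between the resistant lines, BMPR1A and BMPR2 were lower in OV90CisR2, by -1.33 ± 0.13 and -0.79 ± 0.13 (limma adjusted p = 0.00028 and 0.0040). Those 3 calls held with each library left out.

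Glycosylation genes of the interval were ALG5, B3GLCT and COG6. ALG5 (chr13:36949738-36999367), which makes dolichyl-phosphate glucose for N-glycan precursors, had 288, 256 and 208 normalised reads in OV90, 392, 426 and 465 in OV90CisR1, and 293, 306 and 261 in OV90CisR2. OV90CisR1 was above both other lines, which overlapped, with differences from OV90 of 0.78 ± 0.16 and 0.20 ± 0.16. OV90CisR2 was lower than OV90CisR1 by -0.57 ± 0.16 (limma adjusted p = 0.0405, lower in 3 of 3 libraries). This call held without OV90 replicate 1 or OV90 replicate 3 and did not hold without any 1 of the other 7 libraries, with adjusted p between 0.0592 and 0.166.

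Among 13 other genes of dolichol-linked oligosaccharide synthesis, all kept, 4 rose in OV90CisR1 and none fell. None passed in OV90CisR2, where 1 had an unadjusted p under 0.05 and neither edgeR nor DESeq2 called any. The mannosyltransferase ALG3 was 0.90 ± 0.16 higher (limma adjusted p = 0.0055) and DPAGT1, which starts the pathway, 0.81 ± 0.17 higher, a call lost without OV90 replicate 1 (adjusted p = 0.0567). With 1 library left out, 1 to 4 rose. Against OV90CisR1, 3 were lower in OV90CisR2 and none was higher, beside 4.9% and 5.16% of all kept genes. From 1 to 5 were lower with a library left out.

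B3GLCT (chr13:31199975-31332276), which adds glucose to O-fucose on thrombospondin repeats, had 154, 140.2 and 99.8 in OV90, 215, 224 and 252 in OV90CisR1, and 209, 213 and 211 in OV90CisR2. The 3 lines did not overlap, with differences of 0.82 ± 0.18 and 0.70 ± 0.18 from OV90. COG6 (chr13:39655627-39791666), a subunit of the Golgi tethering complex, had 28.8 to 55.5 in OV90, 40.3 to 44.5 in OV90CisR1 and 37.9 to 46.6 in OV90CisR2, which overlapped. None of its 7 partner subunits passed limma against OV90 in either line, with 0 and 2 at an unadjusted p under 0.05 and none by edgeR or DESeq2.

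LHFPL6 (chr13:39342892-39603193), a tetraspan membrane protein, had the largest difference below OV90 of the interval, in OV90CisR1. OV90 had 188, 180.1 and 68.4 normalised reads, OV90CisR1 45.5, 42.4 and 12.4, and OV90CisR2 105, 83.1 and 88.0. OV90CisR1 was below every other library, and OV90CisR2 overlapped with OV90. Log2 differences were -2.15 ± 0.49 and -0.53 ± 0.49 from OV90 and 1.63 ± 0.49 between the resistant lines (limma adjusted p = 0.0564, and 0.0277 without OV90 replicate 3). OV90 replicate 3 and OV90CisR1 replicate 3 were the lowest libraries of their lines.

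HMGB1 (chr13:30456704-30617597), a chromatin protein that also signals outside the cell, had 2188, 2162 and 2525 normalised reads in OV90, 2130.1, 2091 and 1299 in OV90CisR1, and 2961, 2693 and 2989 in OV90CisR2. OV90CisR2 was the highest line and OV90CisR1 the lowest, with no overlap, and OV90CisR1 replicate 3 was far below its own line. Differences from OV90 were -0.35 ± 0.18 and 0.33 ± 0.18. OV90CisR2 was 0.68 ± 0.18 above OV90CisR1 (limma adjusted p = 0.0363, higher in 3 of 3 libraries), and the call was lost without OV90 replicate 1 or 2 or any OV90CisR2 replicate (0.0533 to 0.137). HMGB1 has many processed copies in the genome, and how reads that match several places were counted is not given in the sources used here.

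USPL1 (chr13:30617920-30660766), a SUMO protease, starts 323 bases from HMGB1 on the opposite strand. It had 58.6, 74.9 and 54.9 in OV90, 108, 95.5 and 110.1 in OV90CisR1, and 73.7, 79.6 and 77.4 in OV90CisR2. OV90CisR1 was above both other lines, the reverse of HMGB1, and OV90CisR2 overlapped with OV90, with log2 differences from OV90 of 0.74 ± 0.19 and 0.30 ± 0.19. HSPH1 (chr13:31134973-31162388), a large heat shock chaperone, had 854, 936 and 1391 in OV90, 1439, 1315 and 1406 in OV90CisR1, and 1566, 1857 and 1644 in OV90CisR2. It overlapped between OV90 and OV90CisR1 through OV90 replicate 3, and OV90CisR2 was above both (0.42 ± 0.17 and 0.70 ± 0.17).

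EXOSC8 (chr13:37000786-37009614), a subunit of the RNA exosome, and SUPT20H overlap by 303 bases at their 3′ ends, where this assay reads, so reads of one may be counted for the other. EXOSC8 had 305, 293 and 338 in OV90, 263, 270.4 and 139 in OV90CisR1, and 351, 322 and 335 in OV90CisR2. OV90CisR1 was below both other lines, and both genes were lowest in OV90CisR1 replicate 3. Differences from OV90 were -0.53 ± 0.23 and 0.11 ± 0.23 for EXOSC8 and -0.33 ± 0.29 and 0.14 ± 0.29 for SUPT20H. None of 10 exosome partners passed limma against OV90, with 2 at an unadjusted p under 0.05 in OV90CisR1, 0 in OV90CisR2 and none by edgeR or DESeq2. Of 15 SAGA partners, 1 was higher and 2 were lower in OV90CisR1, 0 or 1 and 0 to 2 with a library left out. None of the 15 passed in OV90CisR2 by limma, edgeR or DESeq2, nor at an unadjusted p under 0.05.

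The 4 remaining kept genes overlapped between OV90 and at least 1 resistant line. KATNAL1, a microtubule-severing ATPase, had means of 255 ± 67.8, 223 ± 6.51 and 254 ± 6.56 (SD, n = 3 libraries a line) in OV90, OV90CisR1 and OV90CisR2. SPART, an endosome and lipid droplet protein, had log2 differences of -0.01 ± 0.17 and 0.14 ± 0.17, and RFXAP, needed for MHC class II transcription, 0.48 ± 0.31 and 0.59 ± 0.31. NHLRC3, whose start lies 222 bases from that of PROSER1 on the other strand, had means of 58.5 ± 25.3 in OV90, with OV90CisR1 at 73.0 to 83.8 and OV90CisR2 at 28.0 to 54.2. Among 7 partners of UFM1 in its pathway, DDRGK1 rose in OV90CisR1 (0.72 ± 0.13, limma adjusted p = 0.0061). In OV90CisR2, CDK5RAP3 alone passed, 0.54 ± 0.13 higher than OV90, a call lost in 7 of the 9 fits that left out 1 library.

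Of the partners of both matrix genes, the Fraser complex partners FRAS1, FREM1, GRIP1, NPNT and ITGA8 were all under the filter, with sums of 5.16 to 16.5 normalised reads a library. Of 10 periostin partners and relatives 6 were kept. In OV90CisR1, 3 rose, the integrin subunit ITGAV by 1.17 ± 0.13 (limma adjusted p = 0.00061), and FN1, fibronectin, fell by 2.05 ± 0.26 on the log2 scale (0.0010). ITGAV and FN1 kept their calls with each library left out, and 1 to 3 rose. None passed in OV90CisR2 (2 at an unadjusted p under 0.05, 0 by edgeR and 1 by DESeq2), and OV90CisR2 had more FN1 (2.24 ± 0.26, limma adjusted p = 0.00066) and less ITGAV (-1.35 ± 0.13, 0.0003) than OV90CisR1.

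The other 10 listed genes were not kept. ALOX5AP, MEDAG, RXFP2, SOHLH2 and STOML3 had 0 reads in all 9 libraries, and a count of 0 allows up to 2.62 to 3.37 normalised reads, the value of 3 reads. KL had 4 reads, all in OV90CisR1 replicate 3, CCNA1 13 and FRY 22 in all libraries together. STARD13, a RhoGAP, had 58 reads, at 15.4, 13.6 and 1.80 normalised reads in OV90, 4.13, 5.30 and 5.62 in OV90CisR1, and 5.12, 2.62 and 4.40 in OV90CisR2. At the threshold, DCLK1 reached 1 CPM in 3 libraries, TRPC4 in 4 and POSTN in 6, while FRY and STARD13 did so in 2 and MAB21L1 in 1.

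Taking the kept genes in genome order, 18 of 26 had a higher mean log2 value than OV90 in OV90CisR1 and 23 of 26 in OV90CisR2, and 16 in both. POSTN, TRPC4 and DCLK1 reached 1 CPM only in resistant libraries, so a higher value in a resistant line was built into their selection. In OV90CisR1, 10 of 26 (38.5%) were called higher, where 8.54% of all kept genes were, and 1 was called lower, where 7.29% were. Groups did not overlap for 12 higher genes and 3 lower ones, beside 17.5% and 17.1% of all kept genes. In OV90CisR2, 5 were called higher and none lower, beside 2.35% and 0.941%, and 12 did not overlap with OV90 on the higher side and none on the lower, beside 13.6% and 13.5%. With all 9 libraries, no gene of the interval was called lower in OV90CisR2 by edgeR or DESeq2 or had an unadjusted limma p under 0.05 on that side. Without OV90 replicate 3 and OV90CisR1 replicate 3 together, limma called 11 genes higher and 2 lower in OV90CisR2. Since the interval was selected on these contrasts, nothing is read from those counts. Without OV90 replicate 1 the calls in OV90CisR1 were 6 in place of 11. In OV90CisR2 they were 3 without OV90CisR2 replicate 1 or 2 and 8 without OV90CisR1 replicate 3, in place of 5.

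**Figure D2:**
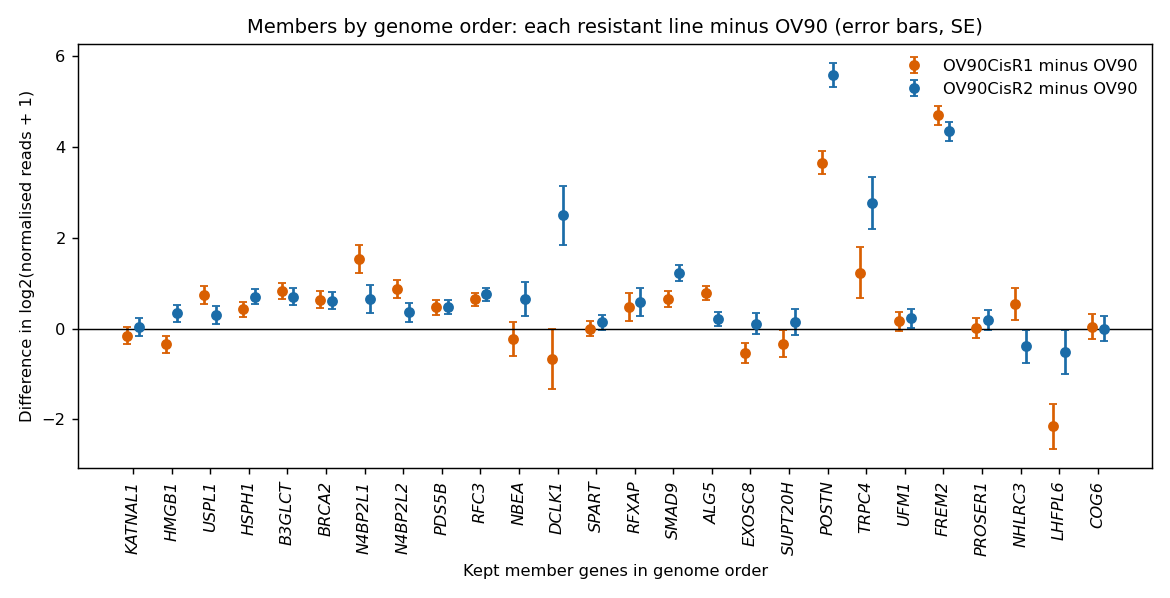
Difference in log2(normalised reads + 1) from OV90 (vertical axis) for the 26 kept genes in genome order (horizontal axis), OV90CisR1 and OV90CisR2 separately; points are differences of means of 3 libraries and bars are SE. FREM2 (4.69 and 4.34) and POSTN (3.65 and 5.58) stand apart from the other genes, most of which lie between -1 and 1.

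The contrast of OV90CisR2 against OV90CisR1 was not used to choose the interval, although it shares libraries with those that were. HMGB1, DCLK1 and POSTN were called higher and ALG5 lower, which is 3 and 1 of 26, beside 5.16% and 4.9% of all kept genes. DCLK1 was kept only through its OV90CisR2 libraries, so its call is no test. Groups did not overlap for 10 higher genes and 7 lower ones, beside 19.4% and 18.2%. The count of 4 was 9 without OV90 replicate 3, 2 without OV90 replicate 2 or OV90CisR2 replicate 2, and 1 without OV90CisR2 replicate 1 or 3. The 5 genes added without OV90 replicate 3 were NBEA, LHFPL6, N4BP2L1, N4BP2L2 and NHLRC3, with limma adjusted p between 0.00755 and 0.0477. The median difference over the 26 genes was 0.13, beside 0.03 over all kept genes.

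Leaving FREM2 and POSTN aside, a smaller difference ran through much of the interval with all 9 libraries, and through less of it in OV90CisR1 without OV90 replicate 3. The median log2 difference from OV90 over 26 genes was 0.48 in OV90CisR1 and 0.41 in OV90CisR2, beside -0.01 and 0.00 over all kept genes, and over the other 24 genes it was 0.44 and 0.34. OV90 replicate 3 moved with it. Without that library the medians over 26 genes were 0.25 in both lines, and over 24 genes 0.15 and 0.20. In OV90CisR1 15 genes then lay above OV90 and 11 below, and in OV90CisR2 22 above and 4 below. OV90 replicate 3 was the lowest OV90 library for 19 of 26 genes, and for 40.5% of all kept genes. Its median over the 26 genes was -0.30 from the OV90 mean, beside 0.17 and 0.12 in the other OV90 libraries, 0.55, 0.51 and 0.43 in OV90CisR1 and 0.39, 0.49 and 0.42 in OV90CisR2. All 6 resistant libraries lay above all 3 OV90 libraries, a description only.

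**Figure D3:**
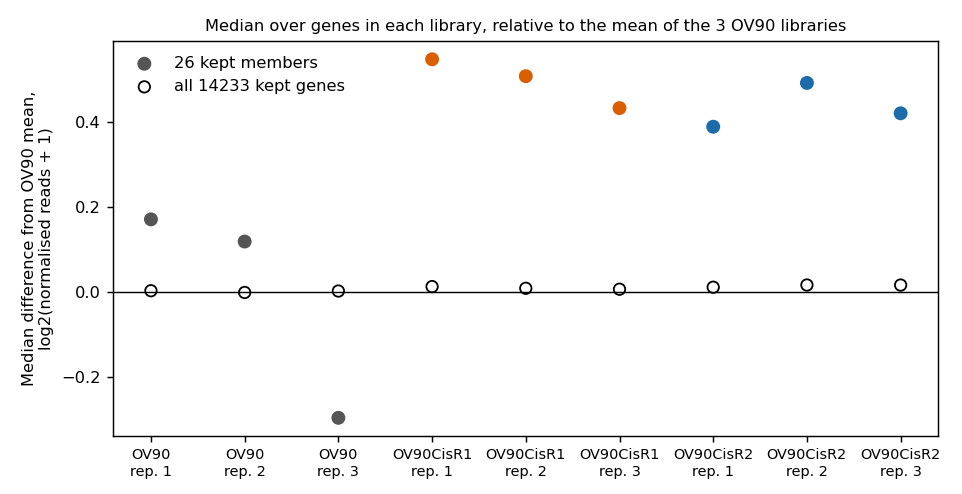
Median over genes of the difference from the OV90 mean in log2(normalised reads + 1) (vertical axis) in each of the 9 libraries; filled points are the 26 kept genes of the interval and open points all 14233 kept genes. OV90 replicate 3 lies lowest at -0.30 and the resistant libraries between 0.39 and 0.55, while the open points stay near 0.

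Along the interval, the medians were 0.42 and 0.33 at 30 to 32 Mb (5 genes), and 0.65 and 0.61 at 32 to 34 Mb (5 genes). They were 0.57 and 0.40 at 36 to 38 Mb (8 genes) and 0.10 and 0.09 at 38 to 40 Mb (6 genes), the stretch that holds FREM2. Only NBEA and DCLK1 were kept at 34 to 36 Mb. The last stretch therefore held both the high FREM2 and a median close to that of all genes. These medians include OV90 replicate 3. Without that library, UFM1, PROSER1, LHFPL6 and COG6 of the last stretch lay below OV90 in OV90CisR1, and FREM2 and NHLRC3 above. In OV90CisR2, NHLRC3, LHFPL6 and COG6 then lay below OV90, and UFM1, FREM2 and PROSER1 above.

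The median over the whole chromosome was also above 0, by less. Over all 245 kept genes of chromosome 13 the median was 0.25 in OV90CisR1 and 0.27 in OV90CisR2, with 165 and 191 above 0, and 0.06 and 0.10 without OV90 replicate 3. In the window of 20 to 30 Mb (45 genes) the medians were 0.00 and 0.19, and in that of 40 to 50 Mb (46 genes) 0.17 and 0.19. Without OV90 replicate 3 these were -0.04, 0.04, -0.06 and -0.02. The window of 30 to 40 Mb, with all 30 kept rows, gave 0.59 and 0.60, and 0.49 and 0.36 without that library. Of these rows, POSTN, TRPC4, DCLK1, CCDC169, LINC00437 and LOC124903145 reached 1 CPM only in resistant libraries. A higher value in a resistant line was therefore built into their selection, and they are part of these medians. The window of 100 to 110 Mb (21 genes) was as high in OV90CisR1, at 0.58 with 19 genes above 0, and lay at 0.37 in OV90CisR2. Its OV90CisR1 median was 0.67 without OV90 replicate 1, 0.70 without replicate 2 and 0.33 without replicate 3, where that of 30 to 40 Mb was 0.63, 0.69 and 0.49.

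Large single differences occurred in the flanks too. At 20 to 30 Mb they ran from TPTE2P6 (-1.95) to LOC107984585 (1.79) in OV90CisR1, and the lowest in OV90CisR2 was TPTE2P6 (-0.66). At 40 to 50 Mb they ran from DLEU2 (-0.59) to MIR320D1 (1.31) in OV90CisR1 and from RGCC (-0.52) to DNAJC15 (1.38) in OV90CisR2. Among 247 windows of 10 Mb with at least 20 kept genes across the genome, 1 had a higher median than 30 to 40 Mb of chromosome 13 in each line. With each OV90 library left out in turn its rank stayed 2 in OV90CisR1 and was 2, 1 and 4 in OV90CisR2. The window was selected on these values and holds rows kept only through resistant libraries, so the rank carries no test.

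**Figure D4:**
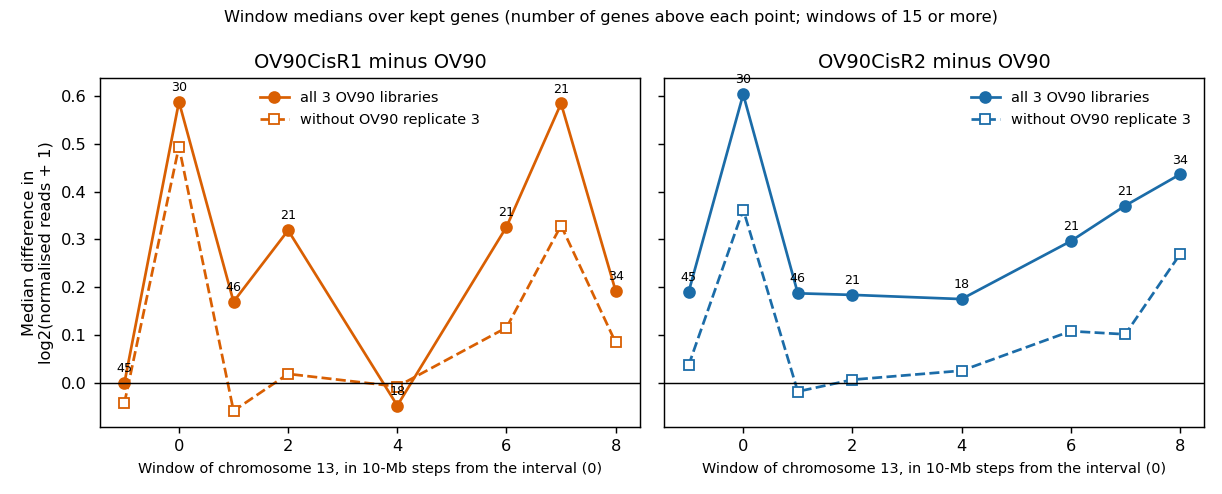
Median difference in log2(normalised reads + 1) from OV90 (vertical axis) over kept genes in 10-Mb windows of chromosome 13 (horizontal axis, steps from the interval at 0; windows with under 15 kept genes are not drawn), with all OV90 libraries and without OV90 replicate 3. The interval is at 0.59 and 0.60 with all libraries and at 0.49 and 0.36 without that one, where the windows on either side lie between -0.06 and 0.04.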

How the data were processed

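The authors deposited 1 table of normalised values, a signal on a scale of reads, for 43424 symbols in 9 libraries. Trizol RNA was made into QuantSeq 3′ libraries, per the labels' protocols, and sequenced single-end on a NextSeq 550. The tools named are Bowtie2, edgeR and bedtools, with build GRCh38, per the submitters' processing notes; their versions, the annotation and how reads were counted were not given in the sources used here. All values (100%) were whole multiples of the smallest value of their column (tolerance 1e-06), so reads were recovered for depth and for count tests as alternatives.

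Genes at 1 CPM or more, scaled to the column total, in 3 libraries were kept. The log2(value + 1) were tested with limma 3.58.1 in R 4.3.3 (variance trend, 3 groups, all 9 libraries), adjusted by Benjamini-Hochberg over 14233 genes, with a threshold of 0.05. The scripts were tested on simulated data. edgeR 4.0.16 and DESeq2 1.42.0 on recovered reads, other pseudocounts, filters and scalings, a replicate block and fits without each library were alternatives. Counting intervals are exact (95%) and cover counting error only, since reads without molecular identifiers are not independent molecules. No replicate pair agreed within counting noise.

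Positions come from RefSeq (GRCh38.p14) by symbol. All kept genes of the interval are named; values per library are given for those past the threshold in any comparison, for FREM2, POSTN and BRCA2 and for their neighbours. The members and lists were chosen with earlier results of these data known. Of partner lists and of the flanking windows, the genes with the largest changes are named; some of those genes are not reported here.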

Additional observations from a re-analysis of the deposited data

Results flagged for a closer look

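Between the resistant lines, 4 genes of the interval differed from OV90 by different amounts, 3 of them as tested by OV90CisR2 against OV90CisR1 with limma and adjustment over all kept genes. On the log2 scale POSTN was 1.93 higher in OV90CisR2 (adjusted p = 0.00150). DCLK1 was 3.17 higher, but it passed the filter only through the OV90CisR2 libraries, so no p is given. HMGB1 was 0.68 higher (adjusted p = 0.0363), and ALG5 was -0.57 from OV90CisR1 (adjusted p = 0.0405). POSTN alone kept its call with each of the 9 libraries left out.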

How the results depend on the processing

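In the alternatives run, no difference of a gene of the interval that was called in the limma fit of all 9 libraries changed sign. No median over the interval changed sign either. Differences that were not called in that fit did. BRCA2 between the resistant lines ran from -0.08 to 0.06. In OV90CisR1, SPART was 0.02 without OV90 replicate 1, and PROSER1 -0.13 and UFM1 -0.01 without OV90 replicate 3. NBEA in OV90CisR1 was -0.22 with all libraries, and 0.01 and 0.10 without OV90 replicate 1 and 2. Without OV90 replicate 3 NBEA was -0.77, and of the 9 fits that left out 1 library it was called in that 1 alone. Genes past the threshold in OV90CisR1 against OV90 were 2252, but 771 with 2 groups in the fit, 3901 without OV90 replicate 3 and OV90CisR1 replicate 3 together, and 939 to 2467 with 1 library left out. Of the 26 genes of the interval 11 passed, but 5 with 2 groups and 6 to 11 with 1 library left out; their median of 0.48 was 0.29 without both libraries and 0.25 to 0.60 with 1 left out. In OV90CisR2 against OV90, 468 genes passed, but 287 with the replicate block, 878 by DESeq2, 3633 without both libraries and 177 to 1312 with 1 left out. Of the interval 5 passed, but 8 by DESeq2, 13 without both libraries (11 higher and 2 lower) and 3 to 8 with 1 left out. The median of 0.41 was 0.25 to 0.57. The share of higher calls was 71.4%, but 80.5% with the replicate block, 60.6% by DESeq2, 54.7% without both libraries and 59.5% to 87.0% with 1 library left out. In OV90CisR2 against OV90CisR1, 1433 genes passed, but 875 with the replicate block, 3750 without both libraries and 442 to 2327 with 1 left out. Of the interval 4 passed, but 12 without both libraries and 1 to 9 with 1 left out, and the median of 0.13 was 0.11 to 0.18. The cause of these shifts was not tested.

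Same-numbered libraries are not said to be paired, and their deviations correlated between -0.307 and 0.0899. With the replicate block 8, 4 and 3 genes of the interval passed in the 3 comparisons, in place of 11, 5 and 4. Depth limits TRPC4, DCLK1, LINC00437 and the 10 genes under the filter.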
